A study of Homo sapiens with 6 samples.

Results

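Regions downstream of genes (DoG regions) serve to count RNA that continues past the annotated end of the gene they are named for, the host. Whether the RNA counted in them came from the host was not tested. The regions described here are the 750 whose mean normalized count was at least as high as that of the host, out of 1798 DoG regions with a gene of their name in the gene table and 2014 DoG regions in all. The regions were chosen by their mean counts, so the levels and ratios below are a description without a test, while the change on UBE3D knockdown took no part in the choice. The cells were MDA-MB-231, an established human triple-negative breast cancer line of mesenchymal type. The comparison was between 3 control libraries and 3 libraries of cells that carried lentiviral hairpins against UBE3D, switched on with doxycycline. The labels do not say whether the controls carried a hairpin or received doxycycline, mark every sample as pooled, and name no separate cultures. P-values therefore cover only how these libraries vary among themselves, which may be technical variation. The deposited tables give no value per library, so each measurement is a mean over the 6 libraries or a log2 fold change of knockdown over control with its standard error (SE).

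A pre-mRNA is normally cut by the endonuclease CPSF73 (gene CPSF3) some bases after a poly(A) signal, the hexamer AATAAA or a variant such as ATTAAA in the DNA. RNA polymerase II then goes on past the cut until the downstream RNA is degraded and the polymerase is released, and RNA of that stretch that stays joined to the host transcript is called readthrough. UBE3D is a ubiquitin ligase known to act together with CPSF73. Many human genes lie tail to tail, on opposite strands with their ends close together, so that the stretch downstream of a gene is also the body or last exon of its neighbour. The library protocol was stranded, but the sources used here do not give the strand setting of the counting, and reads from a DoG region and from a gene on the other strand of the same stretch cannot be told apart. The bounds and lengths of the DoG regions are not given either, so a region's mean count is not per length.

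The transcript ends of 6 tail-to-tail pairs show how close a DoG host and its opposite-strand neighbour can lie. They are shown because these regions were far more abundant than their host and close to, or changed together with, the gene on the other strand. Each line is the last 30 bases of the gene's outermost transcript in GENCODE 29 (GRCh38), 5′ to 3′ on its own strand as DNA, with capitals for a poly(A) signal AATAAA or ATTAAA. IFFO1 ended at chr12:6538375-6538404 (minus strand) and GAPDH at chr12:6538345-6538374 (plus), with 0 bases between them. UFSP1 ended at chr7:100888723-100888752 (minus) and SRRT at chr7:100888635-100888664 (plus), 58 bases apart. FAM166A at chr9:137243584-137243613 (minus) and TUBB4B at chr9:137243678-137243707 (plus) overlapped by 124 bases. WDR38 at chr9:124857861-124857890 (plus) and RPL35 at chr9:124857880-124857909 (minus) overlapped by 11 bases. BMP6 ended at chr6:7881393-7881422 (plus) and TXNDC5 at chr6:7881517-7881546 (minus), 94 bases apart. LEAP2 ended at chr5:132875017-132875046 (plus) and AFF4 at chr5:132875379-132875408 (minus), 332 bases apart.
IFFO1: ccccagaccctagaataagacaggacaagt
GAPDH: atcAATAAAgtaccctgtgctcaaccagtt
UFSP1: atcaatAATAAAagtggcagggctgagcaa
SRRT: cttactgctAATAAAagcacttccacaggg
FAM166A: ctgggagtgAATAAAgagttcacactgctt
TUBB4B: agacaccaccATTAAAgcattttcatagtg
WDR38: gaagtgccaggaaacaaagcagtctcagcc
RPL35: ttgtcAATAAAgcacagctggctgagactg
BMP6: ctgATTAAAtaatacatttataatctacaa
TXNDC5: actttctaAATAAActctttttttttaaaa
LEAP2: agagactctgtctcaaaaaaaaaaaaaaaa
AFF4: ttttctgtATTAAAgttactgaacactgta

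The 750 regions had high counts and their hosts low ones, as the rule requires. In the authors' deposited tables their median mean count was 537 (from 48.4 to 76002), against 167 for the 1048 regions below their host. The hosts had a median mean count of 152 (from 7.85 to 3207) in the authors' deposited table, against 696 for the hosts of the other regions. The ratio of region to host had a median of 2.76 and quartiles of 1.52 and 7.37. It was at least 2 in 477 regions, at least 10 in 144 and at least 100 in 12. The threshold of 1 cut through a continuous range. Just inside it lay PPP2R1B with a mean of 1107 in the region and 1104 in the host, ZNF324B at a ratio of 1.005 and CELSR2 at 1.01, from the authors' deposited tables. Just outside lay CENPM at 0.9998, FTSJ3 at 0.995 and TAF8 at 0.990, from the same authors' deposited tables.

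**Figure D1:**
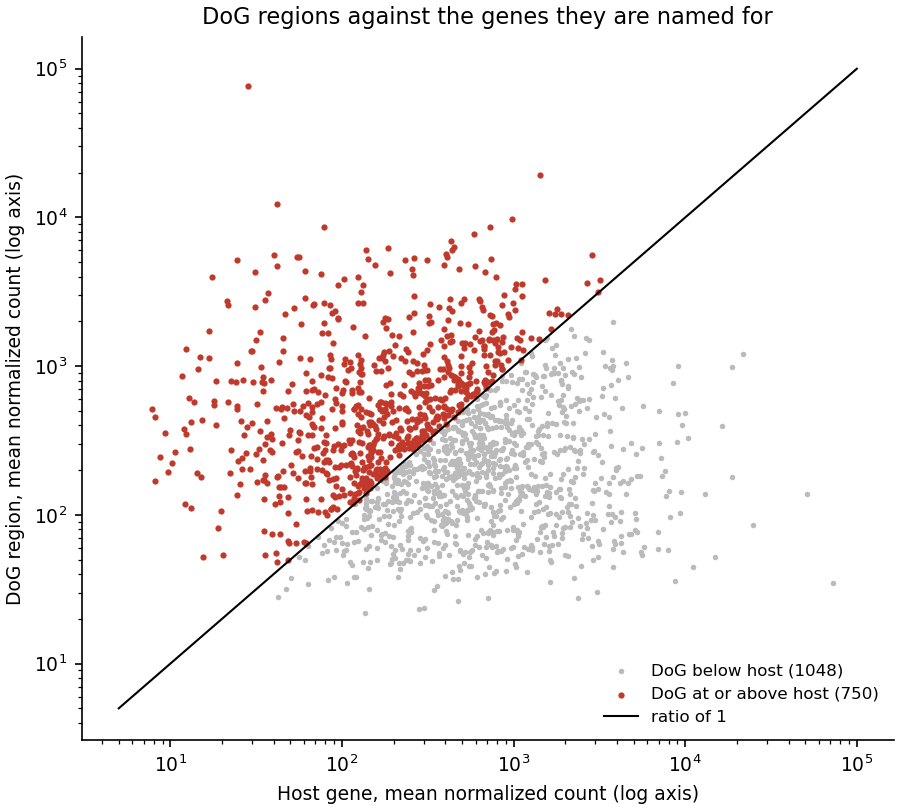
Mean normalized count of each DoG region (vertical, log axis) against that of its host gene (horizontal, log axis) for 1798 regions, as points. The 750 regions at or above their host (red) lie on or above the line of a ratio of 1 by construction, and the topmost point is LOC221946 at 76002.

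Several regions with the highest ratios lay beside abundant genes whose names they do not carry. In the authors' deposited tables the LOC221946 region had a mean count of 76002 and its host 28.4, a ratio of 2679. The host spans chr7:5513854-5525545 in RefSeq (GRCh38.p14), and ACTB, the gene of cytoplasmic beta-actin, lies 1601 bases from it and had a mean of 73090 in the authors' deposited table. The IFFO1 region had a mean of 12268 against 41.7 for IFFO1 itself, a ratio of 294, and GAPDH, the glycolytic enzyme often used as a reference gene, had 11167 in the authors' deposited tables. The strand of LOC221946 is not in the table used, so ACTB is a nearby gene here and was not classed as an opposite-strand gene.

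Other high ratios also came with an abundant gene on the opposite strand. The OPN1SW region (the blue cone opsin gene) had a mean of 5159 against 24.5 for the host in the authors' deposited tables, and CALU, a calcium-binding protein of the secretory pathway, had 6535. For FAM166A the authors' deposited tables gave 4294 in the region, 31.0 in the host and 3789 in TUBB4B, a beta-tubulin gene. For WDR38 the authors' deposited tables gave 4725 in the region, 41.5 in the host and 4469 in RPL35, a ribosomal protein gene. LPPR3, a phospholipid phosphatase related gene, had 2585 in the region and 21.6 in the host, with 2291 in PTBP1, a splicing regulator, in the authors' deposited tables. UFSP1 had 958 in the region and 14.6 in the host, and SRRT, an RNA processing factor, had 892 in the authors' deposited tables. At the top of the levels, FLOT1 had 19157 in the region against 1430 in the host, and the tubulin gene TUBB had 18618 in the authors' deposited tables. Not every high ratio had such a partner: LOC401585 had 8639 in the region and 78.4 in the host in the authors' deposited tables, with no gene of mean 50 or more within 10 kb past the host. For MCCD1 the region had 3962, the host 17.4 and the opposite-strand gene DDX39B 16.2 in the authors' deposited tables. How reads that match several genes or places were counted is not known here, so the low DDX39B mean is uncertain.

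Most of these regions had a measured gene on the opposite strand. Of 733 hosts that could be placed (695 in GENCODE 29 and 38 in RefSeq), 508 (69.3%) had an opposite-strand gene with a mean count of at least 50 within 10 kb past the host's end or overlapping that end. Where several such genes lay there, the most abundant was taken as the neighbour. Below, a measured neighbour means a gene of at least that mean, and weaker or uncounted genes may lie there as well. Among 1039 placed regions below their host the share was 38.3% (398). A same-strand gene alone was found in 39 (5.32%) against 100 (9.62%), and neither in 186 (25.4%) against 541 (52.1%). With a window of 5 kb the shares with an opposite-strand gene were 67.3% and 35.6%, and with 20 kb they were 72.7% and 42.8%. The neighbour overlapped the host's end in 304 of the 508 and lay past it in 204, at a median gap of 724.5 bases. The 508 regions had 503 distinct neighbours, so 10 regions shared a neighbour with another. The neighbour was at least as abundant as the host in 465 of 508 (91.5%), against 76 of 398 (19.1%) in the regions below their host, a difference that partly follows from choosing regions beside weak hosts.

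Across the 508 regions, the region's count was often close to that of the gene on the other strand. That gene was chosen for its level where there were several, which bears on the ratios that follow. The ratio of the region's mean to the neighbour's had a median of 0.997 and quartiles of 0.661 and 1.23. It was within 2-fold in 395 (77.8%) and within 1.25-fold in 220 (43.3%). In the other regions with an opposite-strand gene 63.6% were within 2-fold of it. The correlation of the log mean counts across regions was 0.787 with the opposite-strand gene (n = 508 regions, all measured in the same 6 libraries). The 2 tables may be scaled separately, so a ratio near 1 carries no meaning of its own beyond ranking.

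**Figure D2:**
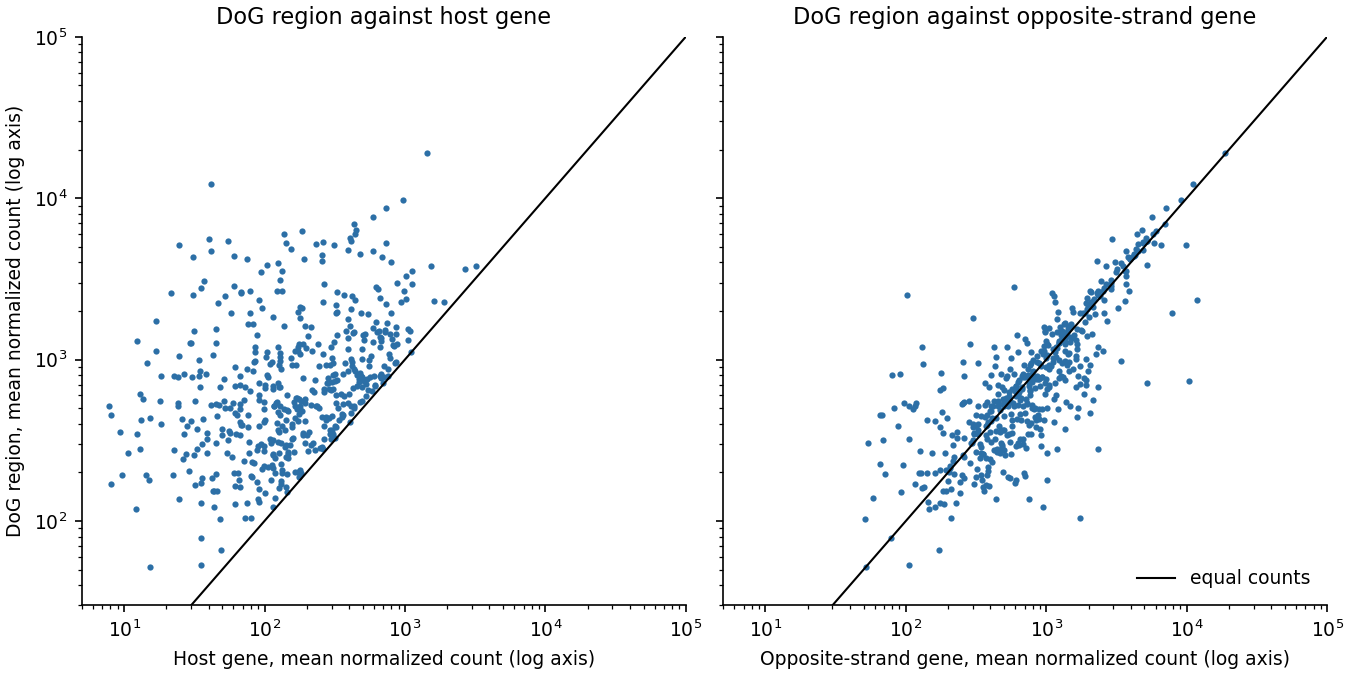
Mean normalized counts (log axes) of the 508 DoG regions with a measured opposite-strand gene, against the host gene (left) and against the opposite-strand gene (right), as points with the line of equal counts. On the right the points lie along the line, with 395 within 2-fold of it; on the left all lie on or above it by construction.

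On UBE3D knockdown more of the 750 regions fell than rose. By the DESeq2 test in the authors' deposited table, adjusted over all 2014 regions and called under 0.05, 65 regions rose (8.67%) and 162 fell (21.6%). Over all DoG regions 12.7% rose and 16.1% fell (28.8% in all), and over the 1048 regions below their host 156 rose (14.9%) and 124 fell (11.8%). The median log2 fold change was -0.07 in the 750 regions and 0.02 in the 1048, computed from the authors' deposited table, whose log2 fold changes are shrunken towards 0. Of the 162 that fell, the host was not past the threshold in 133, had fallen in 24 and had risen in 5. Among the 65 that rose, the host had risen in 23, had fallen in 1 and was not past the threshold in 41. The fall was modest in most: the median log2 fold change from the authors' deposited table was -0.45 among those that fell and 0.43 among those that rose.

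Most of the falls, 121 of 162, lay in the regions with an opposite-strand gene. There 19 rose (3.74%) and 121 fell (23.8%) of 508, with a median log2 fold change of -0.10 computed from the authors' deposited table. Where neither strand held a gene of that mean, 38 rose (20.4%) and 29 fell (15.6%) of 186, with a median of 0.01. With a same-strand gene alone 6 rose and 9 fell of 39, and of the 17 hosts that could not be placed 2 regions rose and 3 fell. The regions below their host gave a like split at the same level. At a region mean of at least 300, 3.43% rose and 25% fell of 408 regions with an opposite-strand gene, and the regions below their host gave 4.52% and 25.2% of 155. With neither neighbour the shares at that level were 22.5% and 17.6% of 102, and 17.2% and 15.1% of 93. The difference between classes was not tested.

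The balance of rises and falls depended on the centring of the region table. The median difference between the region's and the opposite-strand gene's log2 fold change was -0.11 over all 906 regions with such a gene. Shifting all region changes up by 0.11 and testing each against its SE (Wald test, chosen after values were seen) gave 78 regions that rose and 82 that fell, so that rises made up 48.8% of the calls, against 28.6% as deposited and 27.0% with the same test and no shift. With the shift, 29 rose and 58 fell among regions with an opposite-strand gene, and 39 rose and 18 fell among those with neither neighbour. Over all regions the shift gave 12.0% raised and 6.75% lowered.

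**Figure D3:**
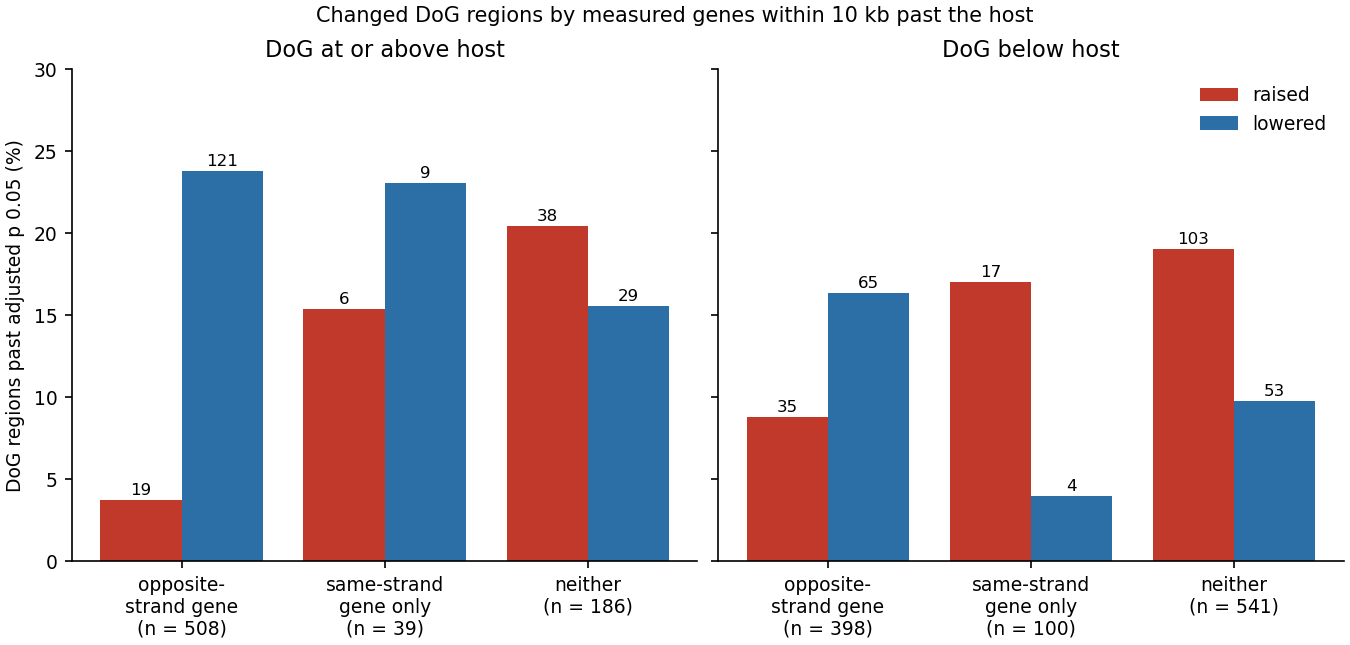
Share of DoG regions (percent, vertical) past adjusted p 0.05 in the authors' deposited table, raised (red) or lowered (blue), by the measured genes within 10 kb past the host, for the 750 regions at or above their host (left) and the 1048 below it (right). Numbers above the bars are counts of regions; with an opposite-strand gene 121 of 508 fell and 19 rose on the left.

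Region changes were compared with those of the opposite-strand gene and of the host. Across the 508 regions, the correlation of log2 fold changes was 0.815 with the opposite-strand gene (Spearman 0.855) and 0.182 with the host (Spearman 0.181), a description over regions measured in the same 6 libraries, whose reads may be shared with the neighbour. With windows of 5 and 20 kb the former was 0.849 and 0.782. In the regions below their host with such a gene the values were 0.732 and 0.255 (n = 398). Where the neighbour itself had fallen (65 regions), 58 regions fell and 0 rose, and 7 were not past the threshold. With a neighbour that had risen (34 regions), 12 rose, 1 fell and 21 were not past the threshold. With a neighbour past the threshold in neither direction (409 regions), 7 rose, 62 fell and 340 were not past it. The host did not share the fall of the neighbour. Where the neighbour fell, the median log2 fold changes were -0.53 in the region, -0.44 in the neighbour and 0.03 in the host. Where the neighbour rose, they were 0.22, 0.41 and 0.13, all computed from the authors' deposited tables. The region values include the median offset of -0.11 from the opposite-strand gene given above.

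**Figure D4:**
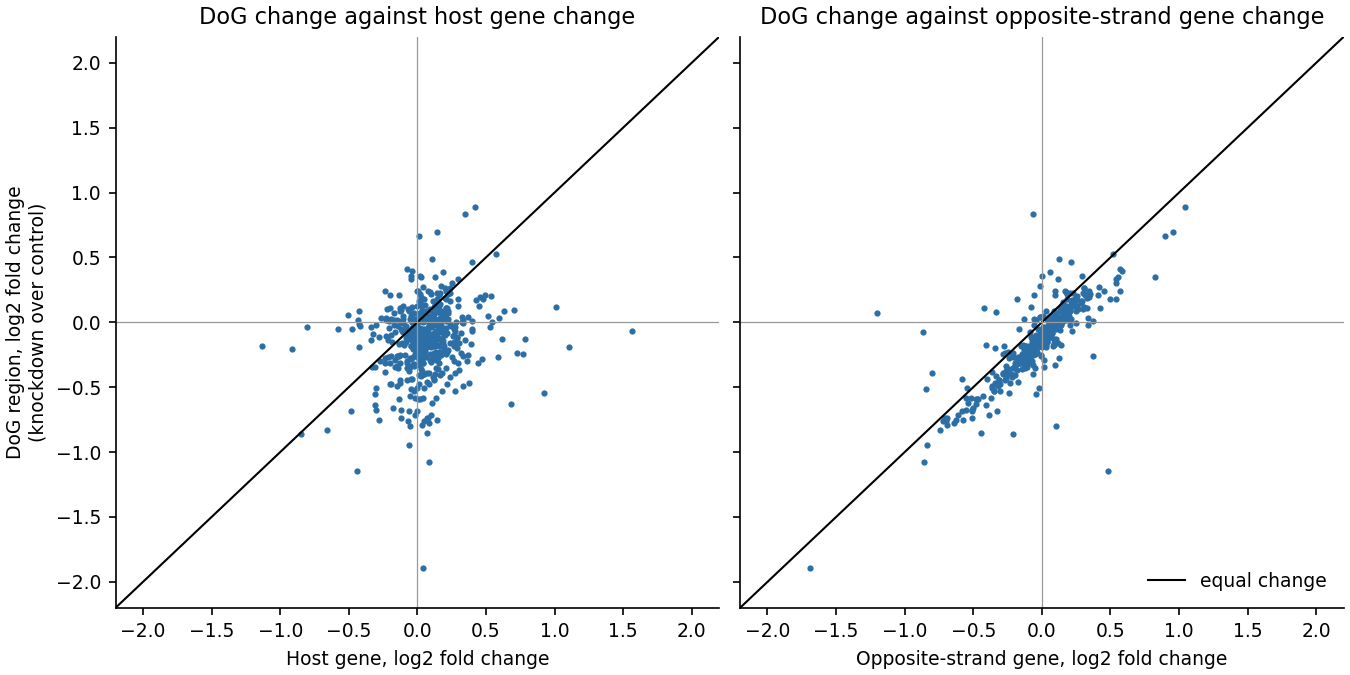
Log2 fold change (knockdown over control) of the 508 DoG regions with a measured opposite-strand gene, against that of the host (left) and of the opposite-strand gene (right), as points with the line of equal change. On the right the points follow the line (Pearson correlation 0.815), slightly below it; on the left they do not (0.182).

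Named examples show the pairing. For BMP6, which encodes a secreted bone morphogenetic protein, the authors' deposited tables gave a mean of 2502 in the region and a log2 fold change of -1.89 (SE 0.17, DESeq2 adjusted p = 4.67e-29). BMP6 itself had a log2 fold change of 0.04 (SE 0.24) and TXNDC5, a protein disulfide isomerase of the endoplasmic reticulum on the other strand, -1.69 (SE 0.25, DESeq2 adjusted p = 4.01e-11) in the authors' deposited table. The TXNDC5 row had a mean of 102 in the authors' deposited table, so as counted here region and neighbour shared a change but not a level. How reads that match several genes were counted is not known, so this low mean is uncertain too. For LEAP2, a liver-expressed antimicrobial peptide gene, the region had a log2 fold change of -1.08 (SE 0.18, DESeq2 adjusted p = 9.11e-10) in the authors' deposited table, the host 0.09 and AFF4, a scaffold of the super elongation complex, -0.86. For SMARCD3, a chromatin remodelling subunit, the authors' deposited tables gave -0.76 in the region (SE 0.08, DESeq2 adjusted p = 9.58e-21), 0.05 in the host and -0.72 in CHPF2, a chondroitin synthesis gene. The region of each of these hosts fell while the host was not past the threshold.

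The highest-ratio regions formed similar pairs. LOC221946 had a log2 fold change of -0.66 (SE 0.18, DESeq2 adjusted p = 0.000146) in the region and ACTB one of -0.53 (SE 0.20, DESeq2 adjusted p = 0.00426) in the authors' deposited tables. IFFO1 had -0.39 in the region (SE 0.16, DESeq2 adjusted p = 0.0123) and GAPDH -0.29 (SE 0.13, DESeq2 adjusted p = 0.0329) in the authors' deposited tables, but the IFFO1 call ended when the shrunken value was tested against its SE (Wald test, adjusted p = 0.0737). In OPN1SW the region had -0.53 (SE 0.15, DESeq2 adjusted p = 0.000466) and CALU -0.35 (SE 0.14, DESeq2 adjusted p = 0.0137) in the authors' deposited tables. None of those 3 hosts was past the threshold. The FAM166A and WDR38 regions had log2 fold changes of -0.01 and 0.03 in the authors' deposited table, and TUBB4B and RPL35, which lie opposite them, had 0.06 and 0.10; none of these passed the threshold. NIT2 (region -0.95, host -0.06, TOMM70A -0.84) and NME7 (region -0.79, host 0.03, ATP1B1 -0.69) fell with a mitochondrial import receptor and a sodium pump subunit on the other strand, by the authors' deposited tables. Upward pairs were fewer: TTC23 rose by 0.89 with SYNM, an intermediate filament gene, at 1.04, and PSMG4 rose by 0.70 with SLC22A23 at 0.96, by the authors' deposited tables.

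Tested directly, 5 of the 508 regions differed from the opposite-strand gene in log2 fold change, 3 higher and 2 lower (z test of the difference of deposited values). Over all 906 regions in that test 0.552% were higher and 0.331% lower, 0.883% in all. By the same kind of test 54 of the 508 differed from their host, 7 higher (1.38%) and 47 lower (9.25%). Over all 1798 regions compared with a host 4.06% were higher and 4.62% lower, 8.68% in all. In the regions below their host with an opposite-strand gene, 44 of 398 differed from the host. A region and its neighbour that do not pass are not shown to be equal, since the test treats their errors as independent although the libraries are the same. OIP5-AS1, a long noncoding RNA, had -1.15 in the region and -0.44 in the host while OIP5, a centromere protein gene, had 0.48 in the authors' deposited tables, a difference of -1.63 from the neighbour (z test, adjusted p = 1.21e-08). MANEAL had -0.80 in the region and MTF1, the metal-responsive transcription factor, 0.11 in the authors' deposited tables, a difference of -0.91 (z test, adjusted p = 0.000185). In the other direction, LOX, a collagen crosslinking oxidase, had -1.20 while the SRFBP1 region opposite it had 0.07 in the authors' deposited tables, a difference of 1.28 (z test, adjusted p = 1.48e-11). JAG1, a Notch ligand, had -0.87 while the SLX4IP region had -0.08 in the authors' deposited tables, a difference of 0.79 (z test, adjusted p = 4.39e-05). PLEKHA3 had 0.83 in the region and TTN, the giant muscle protein titin, -0.07 in the authors' deposited tables, a difference of 0.90 (z test, adjusted p = 0.0259).

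Among the 186 regions with no gene of mean 50 or more on either strand, 80 had no annotated gene there at all. The correlation of region and host of log2 fold changes was 0.743 (Spearman 0.607), against 0.563 in the 541 such regions below their host. Where the host rose (18), 14 regions rose and 0 fell. Where the host fell (18), 14 regions fell and 1 rose. Where the host was not past the threshold (150), 23 rose and 15 fell. In the 39 regions with a same-strand gene alone, the correlation was 0.719 with the host and 0.170 with the same-strand gene.

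Of the 8 largest falls, 7 came with a falling host, all but BMP6. LINC01605, an intergenic noncoding RNA, had a log2 fold change of -2.46 in the region (SE 0.20, DESeq2 adjusted p = 1.45e-33) and -1.64 in the host (SE 0.22) in the authors' deposited tables, with region and host means of 158 and 135. PRKAR2A, a regulatory subunit of protein kinase A, had -1.84 in the region (SE 0.15, DESeq2 adjusted p = 6.25e-33) and -1.41 in the host (SE 0.15) in the authors' deposited tables. Its same-strand neighbour IP6K2 had 0.17 in the authors' deposited table and was not past the threshold. POMK, a kinase that modifies dystroglycan, had -1.44 in the region and -0.88 in the host, and CARNMT1, a carnosine methyltransferase, -1.34 and -0.79 in the authors' deposited tables. TNFRSF10A, a TRAIL death receptor, had -1.21 in the region and -0.82 in the host, and LINC01444 had -1.18 and -0.52 in the authors' deposited tables. Each of these 6 regions had the more negative value, but the region and host values did not differ past the threshold (z test, adjusted over 1798 regions; the smallest adjusted p was 0.0617, for LINC01605). The seventh, OIP5-AS1, had -1.15 in the region and -0.44 in the host in the authors' deposited tables and did differ from its host (z test, adjusted p = 0.0066). The 2 tables are shrunken unequally, the gene table more.

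Of the largest rises, those of 4 zinc finger genes came with a rising host, and those of BUB3 and NUDCD1 did not. ZNF699 had a log2 fold change of 1.8 in the region (SE 0.18, DESeq2 adjusted p = 1.09e-23) and 1.99 in the host (SE 0.19) in the authors' deposited tables. ZNF221 had 1.36 in the region and 1.47 in the host, ZNF283 1.15 and 1.11, and ZNF431 1.13 and 1.48 in the authors' deposited tables. LOC283140 had 1.58 in the region (SE 0.32) and 1.75 in the host (SE 0.29) in the authors' deposited tables. In contrast, BUB3, a spindle checkpoint gene, had a region mean of 2198 and a host mean of 2083 in the authors' deposited tables. The BUB3 region had a log2 fold change of 1.32 (SE 0.19, DESeq2 adjusted p = 1.89e-13) and the gene one of -0.08 (SE 0.10, DESeq2 adjusted p = 0.587) in the authors' deposited tables. That is a difference of 1.40 (SE 0.21, z test, adjusted p = 1.43e-08). NUDCD1 had 1.05 in the region (SE 0.18) and 0.02 in the host (SE 0.12) in the authors' deposited tables, a difference of 1.03 (SE 0.21, z test, adjusted p = 7.84e-05). RPAP2, a phosphatase of the RNA polymerase II tail, had 0.80 in the region and 0.10 in the host in the authors' deposited tables, a difference of 0.70 (z test, adjusted p = 0.0081). For these 3 hosts no gene of mean 50 or more was found on either strand within 10 kb.

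The hosts of the 750 regions rose in 64 cases and fell in 41, by the authors' deposited gene table, where 8.01% of all 1798 hosts rose and 8.12% fell (16.1% in all). Their median log2 fold change was 0.06. Compared with their host, 14 regions changed higher (1.87%) and 54 lower (7.20%) by z test at an adjusted p under 0.05. Over all 1798 regions the shares were 4.06% and 4.62% (8.68% in all). The median difference from the host was -0.14 in the 750 regions. This test did not remove the offset of -0.11 between regions and opposite-strand genes given above, so the balance of higher and lower regions depends on the centring too. In the regions below their host the counts were 59 higher and 29 lower of 1048. Of the 54 lower, 47 had an opposite-strand gene, as did 7 of the 14 higher, beside 508 of all 750.

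Of the 14 higher regions, 6 were not past the threshold while the host had fallen. CIITA, the activator of MHC class II genes, had -0.02 in the region (SE 0.09) and -1.48 in the host (SE 0.30) in the authors' deposited tables, a difference of 1.46 (SE 0.31, z test, adjusted p = 0.000204). Its same-strand neighbour CLEC16A had 0.11 and a mean of 385, beside 420 in the region, in the authors' deposited tables. NEMP2 had -0.18 in the region and -1.13 in the host, TBC1D7 -0.03 and -0.997, and NFE2L3, a stress-response transcription factor, -0.03 and -0.80 in the authors' deposited tables. GPX3, a secreted glutathione peroxidase, had -0.21 in the region and -0.91 in the host, and FEZ2 -0.05 and -0.58, by the authors' deposited tables. Opposite them, MFSD6 (NEMP2), HNRNPA2B1 (NFE2L3), TNIP1 (GPX3) and CRIM1 (FEZ2) had 0.02, 0.06, -0.12 and 0.05 in the authors' deposited table. None of these neighbours was past the threshold. Their means were 714, 9080, 1547 and 5660, beside 572, 9741, 871 and 7688 in the regions, in the authors' deposited tables. TBC1D7 had no measured neighbour. LSM12 stood apart in that the region rose by 0.43 and the host fell by 0.81 on the log2 scale in the authors' deposited tables. The other 7 rose beside a host not past the threshold, among them THOC1 (0.66 against 0.01), POLDIP2 (0.41 against -0.08) and GTPBP2 (0.40 against -0.04) in the authors' deposited tables. The opposite-strand genes of those 3, USP14, TNFAIP1 and POLH, had 0.90, 0.57 and 0.59 in the authors' deposited table and had all risen.

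At the other end, several regions did not follow a host that rose. IL3RA, the interleukin 3 receptor alpha chain, had -0.07 in the region and 1.56 in the host in the authors' deposited tables, a difference of -1.63 (z test, adjusted p = 0.00592). SLC25A6, a mitochondrial ADP/ATP carrier on the opposite strand, had 0.05 and a mean of 1917, beside 2238 in the region, in the authors' deposited tables. EML5 had -0.19 in the region and 1.10 in the host, and ZC3H14 on the other strand 0.03, by the authors' deposited tables. TSNAXIP1 had -0.55 in the region and 0.92 in the host, and CENPT, a centromere protein gene, -0.24, by the authors' deposited tables. RPS6KL1 had -0.63 in the region and 0.68 in the host, and DLST, a citric acid cycle enzyme, -0.48, by the authors' deposited tables. C1orf220 had no such neighbour: its region rose by 0.75 and the host by 2.05 on the log2 scale in the authors' deposited tables, a difference of -1.30 (SE 0.27, z test, adjusted p = 0.000153).

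**Figure D5:**
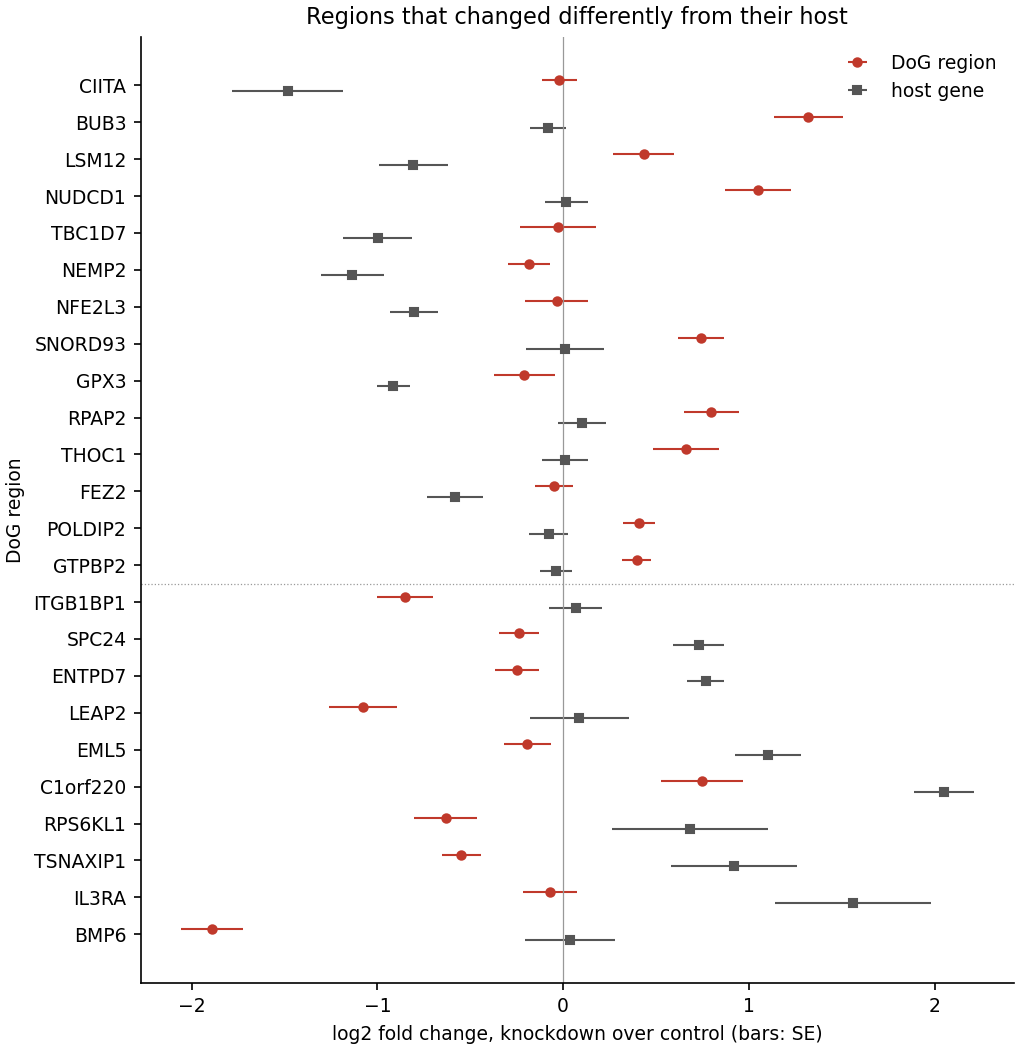
Log2 fold change (knockdown over control, bars SE) of the DoG region (red circles) and its host gene (grey squares) for the 14 regions that changed higher than their host (above the dotted line) and the 10 with the most negative difference (below it). BUB3 has 1.32 in the region and -0.08 in the host, and BMP6 -1.89 and 0.04.

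Hosts that are not protein coding were frequent, 87 of 733 (11.9%) against 20 of 1039 (1.92%) in the regions below their host. Of these 87 regions 11 rose (12.6%) and 23 fell (26.4%), beside 12.7% and 16.1% over all DoG regions. The difference was not tested. Hosts also had shorter exonic sequence, with a median of 4323 bases (n = 695) against 5749.5 (n = 1010); since counts are not per length, a short host has a higher ratio at equal density. All 15 regions named for a microRNA gene were at or above their host. A microRNA gene row counts reads over a hairpin that libraries of long RNA cover little, so these ratios compare a primary transcript region with a very short feature and say nothing on mature microRNAs.

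Of the 15 microRNA regions 2 rose (13.3%), 5 fell (33.3%) and 8 were not past the threshold. Over all DoG regions 12.7% rose and 16.1% fell, and the difference was not tested. A mature sequence was in the RefSeq table for 13 of the 15. The sequences of the regions that changed are shown with the seed, bases 2 to 8, in capitals, from RefSeq (GRCh38.p14). MIR21, an oncogenic microRNA gene, had a mean of 515 in the region and a log2 fold change of -0.77 (SE 0.10, DESeq2 adjusted p = 1.25e-14) in the authors' deposited table. VMP1, the same-strand gene that contains MIR21 and ends past it, had -0.48 (DESeq2 adjusted p = 0.000552) in the authors' deposited table. MIR29A, which targets collagen transcripts, had -0.79 in the region (SE 0.23, DESeq2 adjusted p = 0.000148) in the authors' deposited table. MIR221, which targets a cell cycle inhibitor, had -0.73 in the region (SE 0.19, DESeq2 adjusted p = 4.09e-05) and -0.50 in the host in the authors' deposited tables. Of the regions that rose, MIR614 had 0.34 (SE 0.12, DESeq2 adjusted p = 0.00617) and the same-strand gene GPRC5A 0.54 in the authors' deposited tables. MIR3939 had 0.25 (SE 0.08, DESeq2 adjusted p = 0.00457) in the authors' deposited table and no measured neighbour. The 5 seeds differ from each other. MIR1204 had -0.38 and MIR6723 -0.67 (SE 0.40) in the authors' deposited table, and both fell. MIR1204 lies inside PVT1, a same-strand gene with -0.11 in the authors' deposited table. MIR6723 lies in a copy of mitochondrial sequence, so its value is uncertain. The mature forms lie at chr17:59841273-59841294 (plus) for miR-21-5p, chr7:130876748-130876769 (minus) for miR-29a-3p, chrX:45746180-45746202 (minus) for miR-221-3p, chr12:12915882-12915904 (plus) for miR-614 and chr6:166997830-166997851 (minus) for miR-3939.
hsa-miR-21-5p: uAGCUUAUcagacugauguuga
hsa-miR-29a-3p: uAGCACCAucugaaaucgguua
hsa-miR-221-3p: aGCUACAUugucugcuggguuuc
hsa-miR-614: gAACGCCUguucuugccaggugg
hsa-miR-3939: uACGCGCAgaccacaggauguc

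Other microRNA regions shared seeds and were not past the threshold. The MIRLET7D and MIRLET7F1 regions had log2 fold changes of 0.24 and 0.12 in the authors' deposited table, and their 5p forms share the let-7 seed. The MIR30C2 and MIR30A regions had 0.23 and 0.11 in the authors' deposited table, and their 5p forms share the miR-30 seed.
hsa-let-7d-5p: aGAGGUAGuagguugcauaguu
hsa-let-7f-5p: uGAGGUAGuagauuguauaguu
hsa-miR-30c-5p: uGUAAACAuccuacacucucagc
hsa-miR-30a-5p: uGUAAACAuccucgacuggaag

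Counts by host family are given beside 12.7% raised and 16.1% lowered over all DoG regions, and differences between families were not tested. Of 44 zinc finger hosts (96 zinc finger regions have a host), 10 regions rose and 2 fell, with a median log2 fold change of 0.06. Of the 44 hosts themselves 12 rose and 0 fell, beside 8.01% raised and 8.12% lowered over all 1798 hosts. Zinc finger genes have close paralogs, so reads may be split between copies and these values are uncertain. Among 37 antisense and intergenic noncoding hosts (of 45), 4 regions rose and 8 fell. ACTA2-AS1, antisense to the smooth muscle actin gene, had 0.86 in the region (SE 0.21) in the authors' deposited table and was the largest rise among them. OGFR-AS1 had -0.59 with MRGBP at -0.46 on the other strand, by the authors' deposited tables. SNORD93, a box C/D small nucleolar RNA gene, had 0.74 in the region (SE 0.13) and 0.01 in the host (SE 0.21) in the authors' deposited tables. This host row is a very short feature (chr7:22856613-22856686) with a mean of 17.9 in the authors' deposited table, so its change is uncertain. Messages of replication-dependent histone genes normally end in a stem-loop without a poly(A) tail. Of 5 hosts with a symbol of that family (of 8), which may include pseudogenes, 2 regions rose. They were HIST1H2AC with 0.35 and HIST1H2BO with 0.31 in the authors' deposited table. The HIST1H2BO call ended when the shrunken value was tested against its SE (Wald test, adjusted p = 0.103). Histone copies are near-identical in places, so these too are uncertain. No ribosomal protein gene (0 of 16 with a region) and none of the listed stress readthrough genes (0 of 1) was among the 750 hosts. Of the interferon genes 2 of 3 were: the IFI35 region fell by 0.66 with VAT1 opposite it at -0.50, and the DDX58 region (RIG-I) had -0.10 while DDX58 itself rose by 0.26, by the authors' deposited tables.

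The hosts' own 3′ ends were searched for the common poly(A) signals, and the shares below are a description without a test of their difference. AATAAA was found on the transcript strand in the last 50 bases of the outermost transcript in 329 of 695 hosts (47.3%) and ATTAAA without AATAAA in 84 (12.1%), leaving 282 (40.6%) with neither. The ends of hosts of the other regions gave 56.2%, 15.1% and 28.6% (n = 1010), and all measured genes 58.7%, 13.3% and 28% (n = 18429). Among protein-coding genes alone the shares with neither were 38% in these hosts, 27.8% in the other hosts and 25% in all. The share with AATAAA was alike in hosts with an opposite-strand gene (48.3%) and with neither neighbour (46.2%). The pairs printed above show both kinds: the ends of IFFO1, WDR38 and LEAP2 hold neither hexamer in the 30 bases shown, while GAPDH, RPL35 and AFF4 opposite them hold AATAAA or ATTAAA. A match is a description of the letters, and no match says only that these letters are not in this window.

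The knockdown itself was visible in the gene table. UBE3D had a log2 fold change of -0.80 (SE 0.37, DESeq2 adjusted p = 0.00632) at a mean of 36.7, and CPSF3 one of -0.12 (SE 0.13, DESeq2 adjusted p = 0.464) in the authors' deposited table. Of 34 measured genes of 3′ end processing and termination 2 rose (PCF11 by 0.52 and RBBP6 by 0.39) and 3 fell (UBE3D, PAPOLA by 1.15 and RPRD1B by 0.25, on the log2 scale) in the authors' deposited table, where 4.62% of all genes rose and 7.93% fell (12.5% in all). SCAF4, an anti-terminator protein gene, was the only one of them whose region was among the 750, with -0.01 in the region and 0.11 in the host in the authors' deposited tables. Of 8 markers of this mesenchymal line, all were measured with means from 82.6 to 11376, and 6 fell. Of 8 luminal markers 1 rose (CDH1) and 1 fell (EPCAM), with means from 9.74 (FOXA1) to 3626 (KRT8) in the authors' deposited table. The hormone receptor genes ESR1 and PGR had 22.2 and 50.2, and the keratin KRT18 had 2490 in the authors' deposited table. Markers of other cells (9 of 10 measured, means 14.3 to 168, 1 rose) and of a kidney packaging line (3 of 3, 11.6 to 567, 1 fell) were low apart from L1CAM, which is the one that fell. Whether marker changes play a part in the region changes was not tested, and since these are bulk libraries, fewer cells with a transcript and less RNA per cell cannot be told apart.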

How the data were processed

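Per the labels' protocols, total RNA without ribosomal RNA was sequenced as stranded 75 bp pairs. The tools cutadapt 1.8.1, STAR 2.5.2b and DESeq2 and the build hg38 are named in the submitters' processing notes, without their order. The authors deposited a table of 20115 genes and one of 2014 DoG regions for 1 comparison. Per the file headers each row holds the mean of the normalized counts (a signal), a log2 fold change with its SE, and a p-value before and after adjustment. The deposited adjustment was that of Benjamini and Hochberg, over each whole table. The log2 fold changes are shrunken: over their SE they have a median ratio to the normal quantile of the p-value of 0.64 in genes and 0.827 in regions. Depth per library is unknown. The sources used here do not give the annotation, the strand setting, the bounds of DoG regions or how each table was scaled.

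Regions were joined to hosts by symbol, hosts were placed in GENCODE 29 or, failing that, RefSeq (GRCh38.p14). The 17 not placed lacked a unique match or, as LOC221946, a strand, and entered no neighbour class. Values were called at an adjusted p under 0.05. Region and gene changes were compared with a two-sided z test on the difference of the deposited log2 fold changes, with the root of the summed squared SE and Benjamini-Hochberg adjustment over all regions compared. The scripts (Python 3.11.15, pandas 2.3.3, scipy 1.17.1) were tested on simulated data. The members and lists were chosen with earlier results of these data known. The opposite-strand classes, the shift by the opposite-strand genes and the windows of 5 and 20 kb were chosen after values were seen. The naming rule took the 10 highest ratios, the 8 largest rises and 8 largest falls, the 5 largest region means, the 5 largest differences from the host in each direction, 3 regions on each side of the threshold, and up to 3 members by p-value for each list or class. Of the 66 regions it named, 44 were past the threshold, and not all are printed. Others were named after their values were seen, chiefly UFSP1, NIT2, NME7, TTC23, PSMG4, RPAP2 and the regions that differed from the opposite-strand gene.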

Additional observations from a re-analysis of the deposited data

How the results depend on the processing

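No paired analysis was possible because the tables hold no value per library; for the same reason no replicate could be left out. In the order regions raised, regions lowered, hosts raised, hosts lowered, regions higher than host and regions lower than host, the counts as reported were 65, 162, 64, 41, 14 and 54. A ratio of at least 2 (477 regions) moved them to 32 raised, 39 and 20 for hosts, 5 higher and 35 lower; a ratio of at least 0.5 (1062 regions) to 113 raised, 98 and 62 for hosts and 29 higher. An adjusted p under 0.01 gave 43 raised, 36 and 27 for hosts and 30 lower. Without an annotated same-strand gene within 10 kb (437 regions), 39 rose, 97 fell, 38 and 23 hosts were called and 34 were lower. Without an opposite-strand gene of mean 50 or more (225 regions), 38 fell, 23 and 22 hosts were called, 7 were higher and 6 lower. Without such a gene on either strand (186 regions), 38 rose, 29 fell, 18 and 18 hosts were called, 6 were higher and 5 lower. These subsets hold fewer regions. A correlation of 0.5 between region and host errors gave 28 higher and 123 lower. A Wald test on the shrunken values gave 28 and 20 hosts, and 31 and 17 after a shift to a median of 0; with the regions shifted to match opposite-strand genes 82 fell. Of the 66 regions named by rule, the Wald test kept 64 on their side of the threshold, and 63 after the shift to a median of 0, and none changed direction. The calls that ended were those of IFFO1 (adjusted p = 0.0737 and 0.0873) and HIST1H2BO (0.103 and 0.0859), and after the shift also TMEM75 (0.0508). Precision is known only from the SE, since the depth is unknown; hosts have the larger SE, with a median of 0.15 against 0.13 in the regions.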
